A study of Mus musculus with 4 samples.

Results

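The metallothionein genes Mt1 and Mt2 and the zinc transporter genes Slc39a14, Slc30a1 and Slc39a8 were followed through the cells of the injured mouse kidney. They were taken by gene symbol, and each of the 5 matched 1 of the 31053 genes listed in every library. The kidneys came from male C57BL/6 mice after ischemia-reperfusion, in which the blood supply is interrupted and then restored. Droplet single-cell RNA sequencing gave 4 libraries: day 5, day 14 and day 28 after the injury without L. casei Zhang, and day 5 in mice that had received this probiotic strain (Lac.z) by gavage, 1e9 colony-forming units (CFU) per day over 4 weeks, before the injury. This last group is called the Lac.z sample below, and day 5 without addition means the library of mice without the strain. Every group was 1 library of injured kidney, so no difference between groups has a replicate check and none is given a p-value. What the mice without Lac.z received, and how many animals a library held, were not given in the sources used here. No uninjured kidney was analysed here.

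Metallothioneins are small cysteine-rich proteins that bind zinc and copper in the cytosol and take up cadmium, and the renal tubule is a well-known site of their induction. Free zinc activates the transcription factor Mtf1, which binds metal response elements in the promoters of the metallothionein genes and of Slc30a1. Glucocorticoids and inflammatory cytokines also induce metallothioneins. Slc30a1 (ZnT1) exports zinc across the plasma membrane. Slc39a14 (ZIP14) and Slc39a8 (ZIP8) are closely related importers that bring zinc, iron and manganese into the cytosol, and Slc39a14 is induced in the liver during the acute phase response.

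The libraries held between 76678882 and 104454319 unique molecular identifiers (UMIs, the counted RNA molecules) in 8168 to 15583 barcodes, and 6583 to 12376 cells were kept in each. A cell was assigned to a type from fixed marker genes that did not include the 5 genes, which left between 6.55% and 10.1% of the cells of a library ungated. The gate requires a lead of the own list, so the shares of detected markers describe the gate and do not test it. The median proximal tubule cell had 70.0% of its 10 markers detected against 16.7% of the next list. Proximal tubule cells made up 20.1% of the kept cells at day 5, 58.6% in the Lac.z sample, 61.3% at day 14 and 71.1% at day 28, and macrophages 55.6%, 23.0%, 8.91% and 3.54%. Both day 5 libraries had another software version in their headers (3.0.2) than days 14 and 28 (3.1.0), so version and time after injury cannot be told apart. Pairs of libraries shared 15 to 43 barcodes, at most 0.510% of the smaller library. Levels below are UMIs of a gene per 1000000 UMIs of the same cell type and library (CPM), with exact Poisson 95% intervals that cover counting error only.

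Mt1 lies at chr8:94179082-94180327 and Mt2 at chr8:94172664-94173568 on the plus strand of GRCm38 (the mm10 build), 5513 bases apart. Their annotated transcripts shared 0 stretches of 30 bases, so reads of that length tell the genes apart. Slc30a1 lies at chr1:191906767-191913247 (plus strand), Slc39a8 at chr3:135825279-135888572 (plus strand) and Slc39a14 at chr14:70303469-70351425 (minus strand). Mt2, Slc30a1 and Slc39a8 overlap other annotated genes, Gm45774, 1700034H15Rik and 4933401H06Rik on the opposite strand and, for Slc39a8, Gm43429 and Gm43428 on the same strand. Use of strand in the counting was not given in the sources used here. Without it, reads of a gene and of its overlapping partner cannot be told apart.

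The 250 bases upstream of the RefSeq start (GRCm38.p6) are shown for both metallothioneins, whose levels varied together across cell types, and for Slc30a1, another known Mtf1 target, whose levels did not follow them. Capitals mark the core of the metal response element, searched as TGCACNC and TGCGCNC on both strands. A capital run that reads as the reverse complement is a match on the opposite strand.
Mt1: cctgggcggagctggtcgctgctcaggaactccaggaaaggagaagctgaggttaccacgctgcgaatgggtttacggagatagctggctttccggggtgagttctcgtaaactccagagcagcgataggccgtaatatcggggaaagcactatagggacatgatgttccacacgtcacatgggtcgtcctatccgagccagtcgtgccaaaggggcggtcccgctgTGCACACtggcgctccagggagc
Mt2: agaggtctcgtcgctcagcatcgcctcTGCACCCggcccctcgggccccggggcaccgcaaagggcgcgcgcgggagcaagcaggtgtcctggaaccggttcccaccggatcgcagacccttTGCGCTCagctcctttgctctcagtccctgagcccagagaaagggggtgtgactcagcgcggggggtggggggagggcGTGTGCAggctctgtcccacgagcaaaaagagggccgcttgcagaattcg
Slc30a1: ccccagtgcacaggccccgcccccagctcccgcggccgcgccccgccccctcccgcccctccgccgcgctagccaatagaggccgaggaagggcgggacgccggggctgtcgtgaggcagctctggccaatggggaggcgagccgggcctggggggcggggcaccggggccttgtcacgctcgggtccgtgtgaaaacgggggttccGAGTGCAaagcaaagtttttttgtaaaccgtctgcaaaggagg
The windows are chr8:94178839-94179088 for Mt1, chr8:94172368-94172617 for Mt2 and chr1:191906531-191906780 for Slc30a1, each printed on the plus strand. Mt1 had 1 match, starting 23 bases before its start, and Slc30a1 had 1, on the opposite strand. Mt2 had 3, whose first bases were 223, 128 and 50 bases before its start. Of 32851 RefSeq promoter windows of the same length, 21.4% held at least 1 match and 1.26% at least 3. Slc39a8 has a pair of RefSeq windows, with 0 and 1 matches. GENCODE also places starts of protein-coding Mt1 transcripts 122 and 152 bases, and of Mt2 transcripts 46 and 242 bases, after the RefSeq start. The bases between the RefSeq start and those starts were not searched. The counts can miss matches there and do not rank the promoters of these genes.

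Among the cells that passed the marker gate, Mt1 was a gene of the distal nephron and of macrophages, and was low in the proximal tubule. In the thick ascending limb, the segment that reabsorbs salt without water, its level was 2454 CPM (95% interval 2342 to 2569) at day 5, 3215 CPM (95% interval 3101 to 3331) in the Lac.z sample, 3006 CPM (95% interval 2923 to 3091) at day 14 and 2307 CPM (95% interval 2237 to 2378) at day 28. This was the highest level of any type with at least 50 cells in each of the 4 libraries, and no interval reached that of the next type. The distal convoluted tubule followed, with 2819 CPM in the Lac.z sample, 2427 at day 14 and 1916 at day 28. Its 34 cells at day 5 were too few for a comparison and gave 2811 CPM. Intercalated cells of the collecting duct, which handle acid, had 1940 CPM at day 14 and 1397 at day 28, and water-reabsorbing principal cells 865 and 527.

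Macrophages held 1366 CPM of Mt1 at day 5, 954 in the Lac.z sample, 2520 at day 14 and 1046 at day 28. At day 14 the macrophage interval overlapped that of the distal convoluted tubule, and in the other libraries the tubule type was higher wherever it was measured. Fibroblasts and mural cells, with 43 cells at day 5 and 41 at day 14, had 2499 and 2986 CPM, but no library held 50 of them. Gated proximal tubule cells had only 67.1 CPM at day 5, 85.2 in the Lac.z sample, 73.0 at day 14 and 54.8 at day 28. At day 5 these 1329 cells held 782 Mt1 UMIs, while the 526 ungated cells held 4184. Which types the ungated cells belong to was not tested, so the low level is that of gated cells only. Within each library the thick ascending limb was 36.6-fold to 42.1-fold above the proximal tubule. Macrophages were 11.2-fold to 34.5-fold above it. T cells, near the low end, ranged from 30.5 CPM at day 28 to 66.8 at day 14, and at day 14 the proximal tubule and T cell intervals overlapped.

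The share of cells with an Mt1 UMI separated the types in the same way. It was 94.2% in the thick ascending limb, 93.0% in macrophages, 25.1% in the proximal tubule and 11.5% in T cells at day 5, at median depths of 11334, 11331, 7171 and 4753 UMIs. After thinning each cell to 2000 UMIs, which left out 2, 380, 78 and 22 shallower cells, the shares were 86.0%, 76.9%, 9.51% and 4.80%. Proximal tubule Mt1 was also concentrated: at day 5 the 132 highest of 1329 cells held 74.3% of its UMIs. In macrophages the 367 highest of 3676 held 35.2%, and the median macrophage had 9.80 Mt1 UMIs per 10000 at day 5 and 18.2 at day 14.

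Among types with at least 50 cells, Mt2 was also highest in the thick ascending limb in each library. That type had 399.5 CPM at day 5, 388 in the Lac.z sample, 484 at day 14 and 340.2 at day 28. Macrophages had 47.3, 23.8, 112 and 56.1 CPM, and the proximal tubule 3.6, 1.48, 3.64 and 2.64, in the same order. At day 28 the thick ascending limb interval overlapped that of the distal convoluted tubule (320 CPM). Fibroblasts and mural cells, too few to rank, held 418 Mt2 UMIs in 43 cells at day 5 and 482 in 41 cells at day 14. The thick ascending limb held 296 in 52 cells and 804 in 214 cells at these times. The proximal tubule level rested on 42 UMIs at day 5 and its interval overlapped that of T cells in all 4 libraries. The ungated cells of day 5 held 348 Mt2 UMIs. Mt2 made up 14.0% of the Mt1 and Mt2 UMIs of the thick ascending limb at day 5, 10.8% in the Lac.z sample, 13.9% at day 14 and 12.9% at day 28. In macrophages its part was smaller, at 3.35%, 2.43%, 4.25% and 5.09%, so the balance of the gene pair differed between these types in all 4 libraries. Nearly every cell with an Mt2 UMI also had an Mt1 UMI in the distal nephron and in macrophages: 891 of 901 such macrophages at day 5, and 119 of 120 such thick ascending limb cells at day 14.

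**Figure D1:**
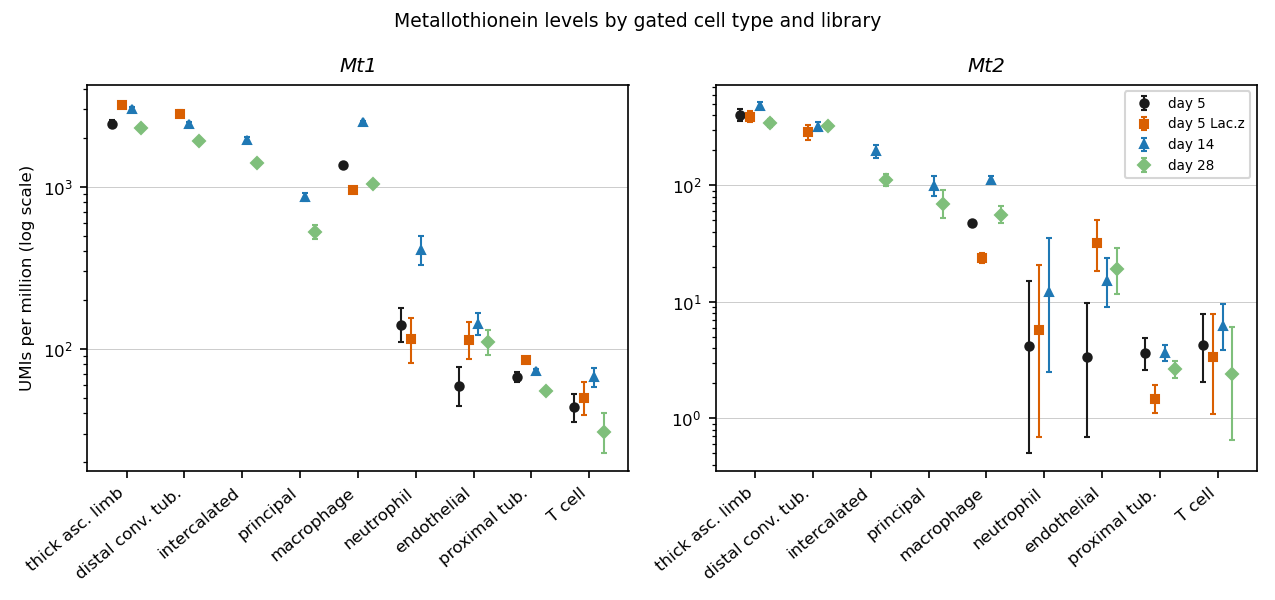
Mt1 (left) and Mt2 (right) in CPM on log axes, by gated cell type, for the 4 libraries (day 5, the Lac.z sample, day 14 and day 28). Points are levels of types with at least 50 cells and bars exact Poisson 95% intervals of the UMI sums, counting error only. Of the types drawn, both genes are highest in the thick ascending limb (Mt1 2307 to 3215 CPM), and Mt1 is lowest in T cells (30.5 to 66.8 CPM).

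Across the 31 combinations of cell type and library with at least 50 cells, Mt2 was the gene whose log2(CPM + 1) level was most like that of Mt1 (Pearson r = 0.946), of 11946 genes with at least 500 UMIs. Slc16a7 (r = 0.914) and B4galt6 (r = 0.910) came next for Mt1, and Slc16a7 (r = 0.929) and Specc1 (r = 0.910) for Mt2. The r of Mt1 was 0.031 with Slc30a1, 0.084 with Slc39a14 and 0.020 with Slc39a8. Slc30a1 was most like Ccdc91 (r = 0.931), Atraid and Gkap1, Slc39a14 most like Dus1l (r = 0.819), Mrps22 and Crls1, and Slc39a8 most like Galns (r = 0.737), Pdgfc and Rhebl1. Combinations from the same library share its depth and free RNA, and those of the same cell type share that type, so these values describe the 4 libraries.

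The exporter Slc30a1 lay highest in endothelial and proximal tubule cells. Endothelial cells had 36.8 CPM at day 5, 29.9 in the Lac.z sample, 32.7 at day 14 and 39.0 at day 28, from 16 to 43 UMIs. Proximal tubule cells had 23.2, 29.7, 29.8 and 29.6 CPM in the same order, and the intervals of both types overlapped in every library. At day 5 the interval of the thick ascending limb (22.9 CPM, 17 UMIs) overlapped both as well. So did those of the distal convoluted tubule (25.0 CPM), principal cells (19.4 CPM) and B cells (3 UMIs) at day 14. Macrophages lay below the proximal tubule, between 7.11 CPM at day 5 and 12.1 at day 28. This was 0.307 to 0.407 of the proximal tubule level of the same library.

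The importer Slc39a14 was at 15.2 CPM in the proximal tubule at day 5, 24.6 in the Lac.z sample, 19.6 at day 14 and 18.7 at day 28. Its interval overlapped that of the thick ascending limb at days 5, 14 and 28 and that of the distal convoluted tubule in the Lac.z sample. The thick ascending limb had the higher level at day 5 (18.9 CPM, 14 UMIs) and the distal convoluted tubule at day 28 (19.8 CPM). At day 5 the macrophage interval (14.0 CPM) also overlapped that of the proximal tubule. The 43 fibroblasts and mural cells of day 5 had 54.3 CPM (95% interval 39.5 to 72.9). Slc39a8, with 63 to 508 UMIs in the proximal tubule, was there at 5.40 CPM at day 5, 9.41 in the Lac.z sample, 11.1 at day 14 and 7.61 at day 28. Slc39a8 had 0 UMIs in principal cells of all 4 libraries, which numbered only 22, 26, 68 and 70 in the same order. The upper limits of the intervals were 3.26 CPM at day 14 and 4.75 at day 28, so low levels there cannot be told from 0.

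**Figure D2:**
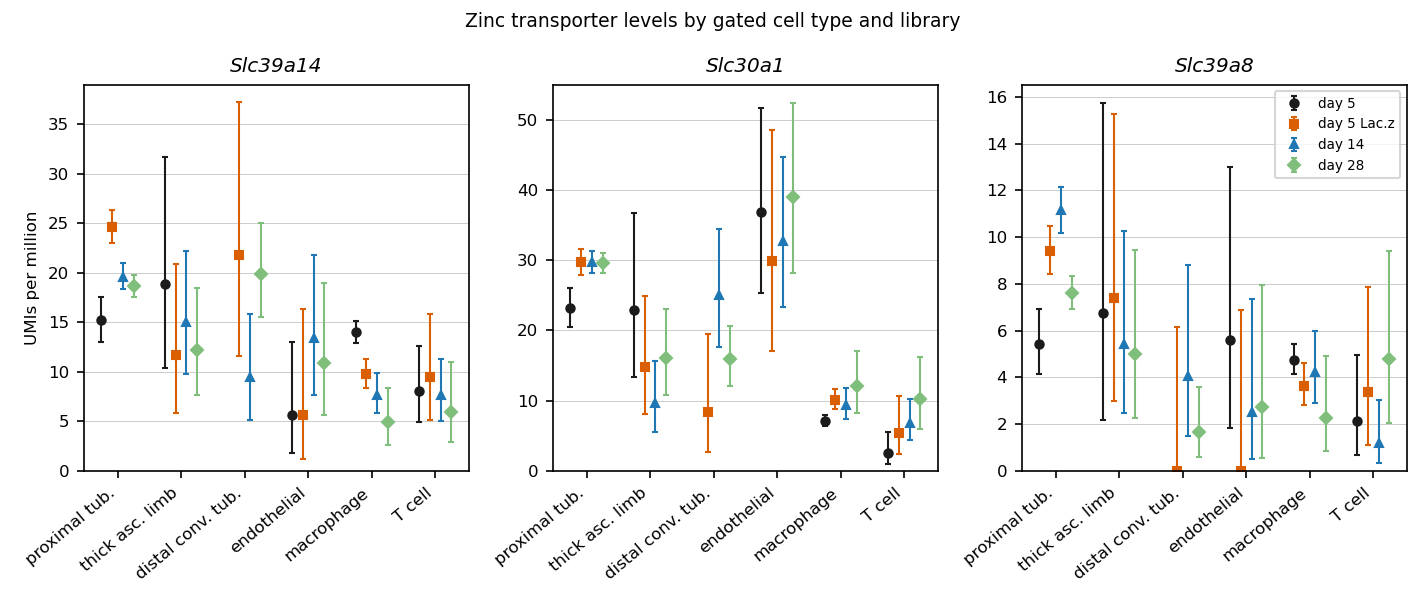
The importers Slc39a14 (left) and Slc39a8 (right) and the exporter Slc30a1 (centre) in CPM on linear axes, by gated cell type and library. Points are levels of types with at least 50 cells, bars exact Poisson 95% intervals (counting error only), and points at 0 had no UMI; Slc30a1 is highest in endothelial cells (29.9 to 39.0 CPM) and the proximal tubule (23.2 to 29.8 CPM).

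The cells that supplied the RNA of each gene differed between the libraries. Over all kept cells Mt1 was at 1050 CPM at day 5, 470.2 in the Lac.z sample, 587 at day 14 and 312 at day 28. Macrophages were 55.6% of cells and held 84.3% of Mt1 UMIs at day 5, while at day 14 they were 8.91% of cells and still held 45.5%. At day 28 the distal convoluted tubule, 3.84% of cells, held most, with 28.4% of Mt1 and 41.5% of Mt2 UMIs. Between day 5 and day 28 the level over all cells was lower at day 28, and within types the ratio to day 5 was 0.940 in the thick ascending limb, 0.765 in macrophages, 0.817 in the proximal tubule and 1.85 in endothelial cells. How far cell numbers and levels within types each account for the difference was not tested. Slc39a14, Slc30a1 and Slc39a8 UMIs came mostly from the proximal tubule in the Lac.z sample, day 14 and day 28 (72.1% to 84.8%). There it was 58.6% to 71.1% of cells. At day 5 macrophages, 55.6% of cells, held the largest share (44.0% to 67.3%), which for Slc30a1 (44.0%) was below their share of cells.

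Within the proximal tubule the genes divided by segment. Cells without a UMI of Havcr1, the gene of the injury marker KIM-1, were placed in the early S1 or S2 segments or the late S3 segment by segment markers, none of which was one of the 5 genes. Mt1 was at 66.3 CPM in S1 or S2 cells at day 5, 100.3 in the Lac.z sample, 104 at day 14 and 75.1 at day 28. In S3 cells it was 8.41 CPM (5 UMIs), 16.1, 12.7 and 6.39, below every S1 or S2 value. The S3 level was 0.085 to 0.160 of the S1 or S2 level of the same library, lower in 4 of 4 libraries.

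Both transporters for which S3 stood apart went the other way. Slc39a8 was at 40.1 CPM (95% interval 31.3 to 50.7) in S3 cells in the Lac.z sample, 43.2 CPM (95% interval 37.7 to 49.4) at day 14 and 32.1 CPM (95% interval 27.6 to 37.2) at day 28, against 7.49, 5.67 and 4.04 CPM in S1 or S2 cells. These were 5.36-fold to 7.96-fold differences. The 66 S3 cells of day 5 held 5 UMIs, too few to compare, and gave 8.41 CPM against 4.59. At day 14, 23.5% of S3 cells had a Slc39a8 UMI against 4.43% of S1 or S2 cells and 0.606% of T cells, at median depths of 7598, 6322 and 4456 UMIs. Thinned to 2000 UMIs, with 21, 134 and 15 shallower cells left out, the shares were 9.00%, 0.796% and 0.310%.

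Slc30a1 was higher in S3 in 4 of 4 libraries, 1.44-fold to 2.60-fold, with 25.2, 47.0, 59.9 and 50.6 CPM at day 5, the Lac.z sample, day 14 and day 28. Slc39a14 differed less between the segments, 1.03-fold to 1.31-fold. With a lead of 0.4 in place of 0.2 in the segment split, chosen after seeing the data, the ranges were 12.4-fold to 17.7-fold for Slc39a8 in 3 libraries, 2.45-fold to 4.30-fold for Slc30a1 and 0.035 to 0.406 for Mt1, while Slc39a14 had no UMI in the fewer S3 cells of day 5. A looser lead was also run, and its ranges are not given here. For a direction shared by 4 of 4 libraries, the smallest p a two-sided exact paired permutation test can give is 0.125, so none of these passes 0.05. S3 cells were 4.97% of proximal tubule cells at day 5, 4.04% in the Lac.z sample, 9.96% at day 14 and 7.23% at day 28.

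Proximal tubule cells with a Havcr1 UMI numbered 75 at day 5, 263 in the Lac.z sample, 269 at day 14 and 34 at day 28, and were deeper (medians 9598 to 11776 UMIs) than those without (4976 to 7804). Slc39a14 was 1.42-fold to 1.61-fold and Slc30a1 1.42-fold to 1.52-fold higher in these cells than in those without Havcr1, in the 3 libraries with at least 50 of them. Mt1 had no single direction, with 161 against 58.1 CPM at day 5, 104 against 83.1 in the Lac.z sample and 54.7 against 74.5 at day 14. At day 5, 1 cell held 71.2% of the Mt1 UMIs of the Havcr1 group. Mt2 was higher with Havcr1 in all 3 libraries, on few UMIs: 20.8 against 1.97 CPM at day 5 (21 UMIs on each side), 4.82 against 1.11 in the Lac.z sample (17 and 35 UMIs) and 8.38 against 3.24 at day 14 (30 and 136 UMIs). These were ratios of 10.5 (95% interval 5.48 to 20.3), 4.36 (95% interval 2.29 to 8.0) and 2.59 (95% interval 1.68 to 3.86). The day 5 pair lay below the minimum of 50 UMIs over both sides used for calls between libraries. Its UMIs came from 15 cells. At day 14, 2 of the 269 cells held 83.3% of the Mt2 UMIs of the group. Slc39a8 had no single direction, at 1.32, 0.734 and 1.54 of the level without Havcr1.

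**Figure D3:**
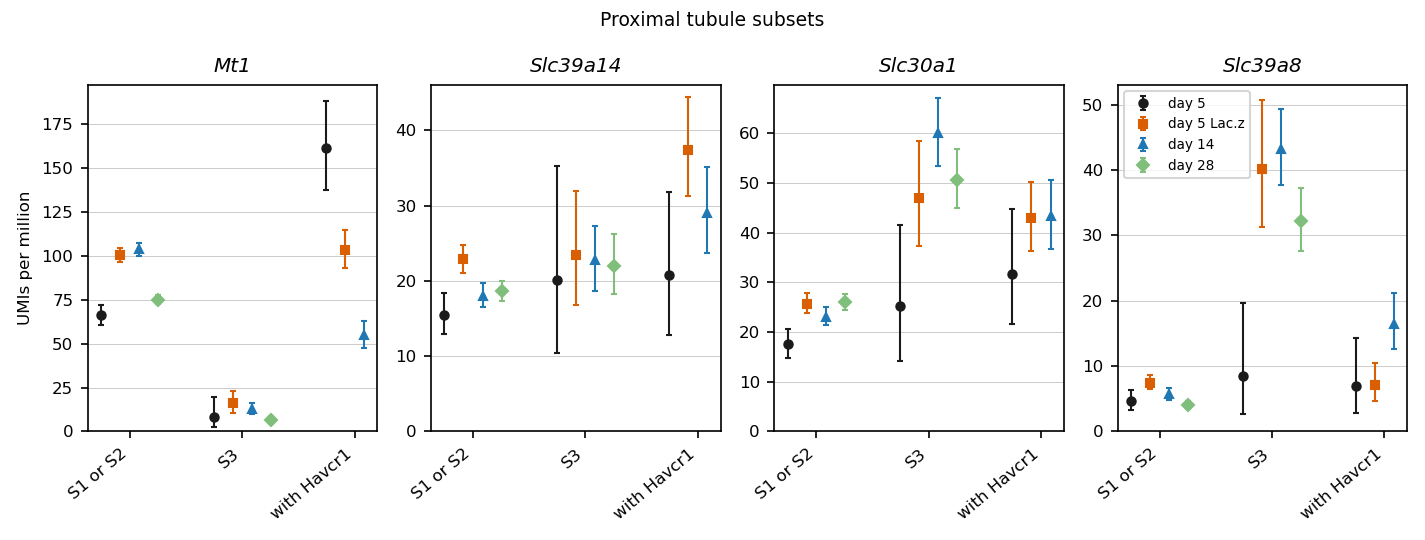
Mt1, Slc39a14, Slc30a1 and Slc39a8 in CPM (linear axes) in proximal tubule cells of the S1 or S2 segments, of the S3 segment and with a Havcr1 UMI, for the 4 libraries. Points are levels of subsets with at least 50 cells and bars exact Poisson 95% intervals (counting error only); in S3 cells Mt1 is low (6.39 to 16.1 CPM) and Slc39a8 reaches 43.2 CPM at day 14.

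Lac.z at day 5 was compared with day 5 alone, the comparison that addresses the probiotic. In proximal tubule cells both importers were higher, and Mt2 was lower there and in macrophages. A gene was called higher or lower in a type at 1.5-fold, taken from the log2 ratio after 1 UMI had been added on both sides, in types with at least 50 cells in both libraries and with at least 50 UMIs over both. Of 30 possible pairs of gene and type, 15 were measured, 3 were higher and 2 lower. Over all genes, 6.24% of 40093 measured pairs were higher and 4.67% lower. Ratios carry exact conditional binomial 95% intervals, which also cover counting error only.

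Slc39a14 was 1.62-fold (95% interval 1.38 to 1.92) higher in the proximal tubule in the Lac.z sample and Slc39a8 1.74-fold (95% interval 1.33 to 2.32) higher, 2 of 5 genes where 6.02% of 11456 genes were higher. Mt2 was 2.44-fold (95% interval 1.58 to 3.73) lower there, 1 of 5 where 2.13% were lower, from 52 UMIs in 3859 cells and 42 in 1329. Mt1 and Slc30a1 were within the threshold, at 1.27 and 1.28 of the day 5 level. Within S1 or S2 cells the values were 1.48 for Slc39a14, 1.63 for Slc39a8 and 1.51 for Mt1, so Slc39a14 then missed 1.5-fold and Mt1 passed it. The Mt2 UMIs of day 5 lay in 15 cells, and the summed level of 8 macrophage markers in proximal tubule cells was 77.1 CPM at day 5 against 32.6 in the Lac.z sample. Their part in the Mt2 difference was not tested. When cells were assigned by clusters in place of the marker gate, Mt1 in the proximal tubule was at 0.753 of day 5 in the Lac.z sample, the other direction, while Slc39a14, Slc39a8 and Mt2 kept theirs. Over 12 alternatives Slc39a14 ran from 1.53-fold higher with clusters to 2.71-fold higher. The highest was in proximal tubule cells without a UMI of any macrophage, distal or fibroblast marker, a subset chosen after seeing the data.

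In macrophages all but Mt2 stayed within 1.5-fold in the Lac.z sample. Mt2 was 1.99-fold (95% interval 1.80 to 2.21) lower, 1 of 5 genes where 3.34% of 11529 were lower, and 0 of 5 were higher where 8.13% were. Mt1 was 1.43-fold (95% interval 1.41 to 1.46) lower, Slc39a14 1.43-fold (95% interval 1.21 to 1.70) lower and Slc30a1 1.42-fold (95% interval 1.18 to 1.71) higher, none past the threshold. Of 11 alternatives, 1 took Mt1, 1 Slc39a14 and 2 Slc30a1 past it. Thinning to 2000 UMIs gave 0.505 of day 5 for Slc39a14 and 2.03 for Slc30a1. Mt1 was at 0.651 in macrophages without markers of other types. Macrophages with a UMI of the monocyte genes Ly6c2 or Ms4a4c were 1204 of 1513 in the Lac.z sample and 1112 of 3676 at day 5. Mt2 was at 20.6 against 38.2 CPM in those cells and at 37.4 against 52.0 in the others. In endothelial cells Mt1 was 1.92-fold (95% interval 1.31 to 2.84) higher, from 61 and 53 UMIs, of which the 11 highest cells of 112 held 93.4% and the 18 highest of 181 held 77.4%. The thick ascending limb, with 61 and 52 cells, had 1.31-fold (95% interval 1.24 to 1.39) the Mt1 and 0.972 of the Mt2.

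At day 14 both metallothioneins were higher in macrophages than at day 5, while the importer Slc39a14 was lower there. Of 16 measured pairs of gene and type 6 were higher and 1 lower, where 9.10% and 8.86% of 43425 pairs over all genes were. Macrophage Mt1 was 1.84-fold (95% interval 1.81 to 1.87) higher and Mt2 2.36-fold (95% interval 2.18 to 2.56) higher, 2 of 5 genes where 10.3% of 11252 were higher. Slc39a14 was 1.82-fold (95% interval 1.39 to 2.43) lower, from 58 UMIs at day 14, 1 of 5 where 12.7% were lower. Slc30a1 and Slc39a8 were at 1.32 and 0.891 of the day 5 level. The difference in Mt1 extended over the macrophages: 93.8% of macrophages had a UMI at day 14 and 93.0% at day 5, and the 10th percentile, the median and the 90th percentile of Mt1 per 10000 UMIs of a cell were 1.98, 18.2 and 57.7 against 1.48, 9.80 and 27.7.

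Mt1 was high at day 14 in each macrophage subset of at least 50 cells examined: 2455 CPM in cells with a UMI of the resident-type gene Cx3cr1 against 1347 at day 5, and 2460 against 1236 in those with Ly6c2 or Ms4a4c. Cells with and without a UMI of the cycling gene Mki67 had 2348 and 2543 CPM at day 14. RNA of tubule markers in macrophages also differed between the libraries. The 10 proximal tubule markers summed to 40.0 CPM at day 5, 111 in the Lac.z sample, 184 at day 14 and 339.7 at day 28. The 6 thick ascending limb markers summed to 18.6, 18.0, 29.2 and 75.7. In macrophages without a UMI of any proximal, distal or fibroblast marker, a subset chosen after seeing the data, the day 14 level was 1.89-fold that of day 5 for Mt1 and 2.90-fold for Mt2, but 0.783 for Slc39a14, no longer past 1.5-fold. Thinning to 2000 UMIs moved Slc39a14 the other way, to 0.286.

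In the proximal tubule at day 14, Slc39a8 was 2.06-fold (95% interval 1.58 to 2.72) higher, 1 of 5 genes where 8.48% of 11541 were higher, and 0 of 5 were lower where 6.06% were. S3 cells were a larger part of the proximal tubule (9.96% against 4.97%), within S1 or S2 cells Slc39a8 was at 1.24-fold (95% interval 0.862 to 1.81) the day 5 level, and within S3 cells it was at 43.2 CPM against 8.41 (215 and 5 UMIs). The part of the segment shares in the whole difference was not tested. Mt1 of the whole proximal tubule was at 1.09 of the day 5 level, and at 1.56-fold (95% interval 1.43 to 1.72) within S1 or S2 cells. Mt2 of the whole proximal tubule was at 1.01 of day 5, and at 1.64 without the Havcr1 cells, past 1.5-fold; of its 42 UMIs of day 5, 21 lay in the 75 Havcr1 cells. With clusters in place of the gate the ratios to day 5 in the proximal tubule were 0.548 for Mt1 and 0.243 for Mt2 at day 14, and 0.406 and 0.165 at day 28, all past 1.5-fold and lower, so the calls of both metallothioneins there depend on how cells are assigned. Slc39a8 at day 14 was at 1.34 of day 5 under a stricter gate. Mt1 was also higher at day 14 in endothelial cells, 2.41-fold (95% interval 1.76 to 3.35), neutrophils, 2.88-fold (95% interval 2.10 to 3.98), and T cells, 1.54-fold (95% interval 1.21 to 1.96). The T cell value was no longer past 1.5-fold without doublet removal or after thinning (1.08 at the lowest). In endothelial cells the summed 6 thick ascending limb markers were at 15.6 CPM at day 5, 13.1 in the Lac.z sample, 21.0 at day 14 and 39.0 at day 28, with Slc12a1 at 0 in all but the last, and the 12 immediate early genes at 11034, 12653, 25675 and 23371. Their part in the endothelial values was not tested. In neutrophils 48.5% of the 101 UMIs of day 14 lay in 1 of 82 cells. In the thick ascending limb Mt1 and Mt2 were within 1.5-fold, at 1.23 and 1.21.

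At day 28 macrophage metallothioneins were within 1.5-fold of day 5. Of 15 measured pairs 2 were higher and 2 lower than at day 5, where 11.4% and 9.57% of 40725 pairs over all genes were. Macrophage Mt1 was at 0.765 and Mt2 at 1.19 of the day 5 level, within the threshold. Slc30a1 was 1.69-fold (95% interval 1.14 to 2.44) higher (1 of 5 genes, 15.7% of 11113 higher), but at 1.38 of day 5 in macrophages without markers of other types. Slc39a14 was 2.85-fold (95% interval 1.66 to 5.39) lower and Slc39a8 2.10-fold (95% interval 0.949 to 5.78) lower (2 of 5, 13.2% lower), from 13 and 6 UMIs at day 28, and the Slc39a8 interval of the ratio included 1. The Slc39a8 value was at 0.605 of day 5 and no longer called without doublet removal, 0.244 with clusters and 0.264 in macrophages without markers of other types, and thinning to 2000 UMIs gave 0.074 for Slc39a14. Macrophage Slc39a14 thus read 14.0 CPM at day 5, 7.66 at day 14 and 4.90 at day 28. In the proximal tubule none of the 5 passed 1.5-fold (6.77% of 11682 genes were higher and 7.85% lower), with ratios from 0.732 for Mt2 to 1.41 for Slc39a8. Endothelial Mt1 was 1.85-fold (95% interval 1.33 to 2.61) higher than at day 5, and 1.35-fold as a mean over cells.

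Day 28 against day 14 gave 1 higher and 6 lower of 23 measured pairs, where 5.83% and 5.04% of 61296 pairs over all genes were higher and lower. Macrophage Mt1 was 2.41-fold (95% interval 2.32 to 2.51) lower and Mt2 1.99-fold (95% interval 1.67 to 2.39) lower. Macrophage Slc39a14, at 0.639 of day 14, would be another without the added UMI. Mt1 was 1.64-fold (95% interval 1.46 to 1.85) lower in principal cells and 2.19-fold (95% interval 1.61 to 3.03) lower in T cells, and Mt2 1.77-fold (95% interval 1.49 to 2.10) lower in intercalated cells. In the distal convoluted tubule Slc39a14 was 2.10-fold (95% interval 1.17 to 4.03) higher and Slc30a1 1.56-fold (95% interval 1.01 to 2.40) lower, while Mt1 and Mt2 were at 0.790 and 1.00. This Slc39a14 ratio rested on 72 UMIs at day 28 and 14 at day 14. It was 3.41-fold under a stricter gate and 1.68-fold with a mitochondrial limit of 25%. The median mitochondrial share of distal convoluted tubule cells was 14.6% at day 14 and 5.77% at day 28, and its part in the ratio was not tested. The T cell value reversed to 1.01-fold without doublet removal, and the principal, intercalated and Slc30a1 values were then no longer called. Means over cells lost the same 3 calls, thinning to 2000 UMIs the principal and intercalated ones and clusters that of Slc30a1. The comparisons with day 5 share 1 library, and this one shares its libraries with them, so their values are set side by side and not counted as separate evidence.

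**Figure D4:**
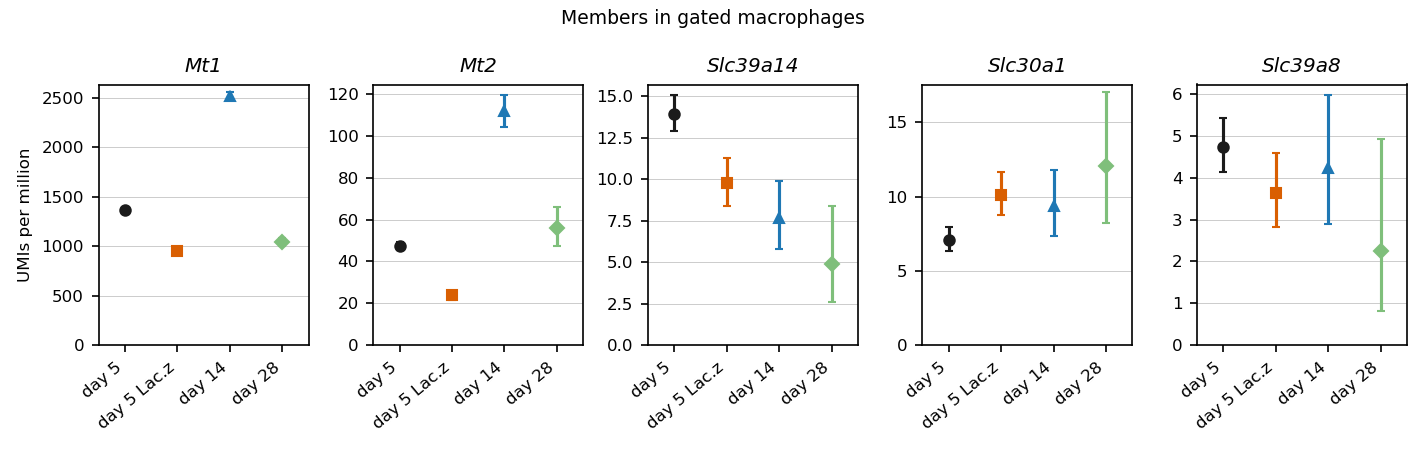
The 5 genes in gated macrophages in CPM (linear axes that start at 0) in the 4 libraries, with exact Poisson 95% intervals as bars (counting error only). Mt1 and Mt2 are highest at day 14 (2520 and 112 CPM), while Slc39a14 is highest at day 5 (14.0 CPM).

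The other zinc transporters mostly kept within 1.5-fold in these cells. Of 10 exporters of the Slc30a family 7 were measured in the proximal tubule, and against day 5 none was past the threshold in the Lac.z sample or at day 14 and 1 was higher at day 28, Slc30a2 (1.64-fold), a vesicular zinc transporter, where 6.77% of all genes were higher. Of 14 importers of the Slc39a family 11 were measured, and 2 were higher in the Lac.z sample, 3 at day 14 and 1 at day 28, where 6.02%, 8.48% and 6.77% of all genes were. Beside Slc39a14 and Slc39a8 these were Slc39a3 (1.53-fold at day 14) and Slc39a7, an importer of the endoplasmic reticulum (1.61-fold at day 14 and 1.57-fold at day 28). Slc39a1 was 1.51-fold lower at day 28. In macrophages 10 importers were measured. Slc39a1, a plasma membrane importer, was 1.74-fold lower at day 14, then 2.33-fold at day 28, beside Slc39a14 and, at day 28, Slc39a8, which made 2 of 10 and 3 of 10 lower where 12.7% and 13.2% of all genes were. The median log2 ratio of the importers in macrophages was -0.21 at day 14 and -0.26 at day 28, where it was -0.08 and -0.01 over all genes measured. Mtf1 stayed within 1.5-fold in both cell types in every comparison, Mt3 had 0.1 CPM or less in the proximal tubule, and Mt4 was at 0 there.

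Lists of genes known to respond to the inducers of metallothioneins were counted in the same way. Of 10 glucocorticoid-responsive genes measured in the proximal tubule, 6 were higher in the Lac.z sample, 6 at day 14 and 8 at day 28 than at day 5, and none was lower. Over all genes 6.02%, 8.48% and 6.77% were higher. Their median log2 ratios were 0.97, 0.97 and 0.98, against 0.06, 0.03 and 0.01 over all genes measured. In macrophages 4, 6 and 6 of 9 were higher and none lower, where 8.13%, 10.3% and 15.7% of all genes were higher, with medians of 0.49, 0.88 and 1.47 against 0.03, -0.08 and -0.01. Fkbp5, a chaperone of the glucocorticoid receptor, was 2.24-fold, 4.72-fold and 5.15-fold above day 5 in macrophages, and Zbtb16 1.96-fold, 5.37-fold and 7.59-fold. Of the interleukin-6 and STAT3 response list in the proximal tubule, 5 of 9 measured genes were lower at day 14 and 4 of 8 at day 28, among them Fgg, a fibrinogen chain (3.23-fold and 8.87-fold lower). Over all genes 6.06% and 7.85% were lower. The medians of the list were -0.86 and -1.14, against 0.03 and 0.01. Slc39a14 in those cells was within 1.5-fold at both times. The 12 immediate early genes, which also respond to tissue dissociation, summed in macrophages to 11399 CPM at day 5, 11121 in the Lac.z sample, 18230 at day 14 and 18129 at day 28. The part of the glucocorticoid-responsive and immediate early changes in the metallothionein values was not tested.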

How the data were processed

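Whole-number UMI counts per gene and barcode were deposited by the authors as 1 matrix per library, made with software versions 3.0.2 and 3.1.0, per the file headers, on the mm10 build, per the submitters' processing notes. Dissociation used enzymes, straining and red cell lysis, per the labels' protocols. The aligner and annotation were not given in the sources used here. Barcodes with fewer than 200 genes or over 50% mitochondrial UMIs were dropped. The highest Scrublet scorers (scanpy 1.11.5) were removed as doublets at 0.8% per 1000 barcodes. A cell took the type of the marker list with at least 2 detected genes and a lead of 0.2 in the share detected. UMI sums per type and library gave CPM, ratios and intervals (scipy 1.17.1). Depth per library and type enters through these intervals, which cover counting error only. The 1.5-fold calls were planned on the plain ratio and made with 1 UMI added to each sum, which kept a pair of borderline values out. Other genes are named when among the 3 highest or lowest ratios of their list and past 1.5-fold. The calculation was tested on simulated counts. The members and lists were chosen with earlier results of these data known. Alternatives are given in the closing section, except those of the segment split.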

Additional observations from a re-analysis of the deposited data

Results flagged for a closer look

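Slc39a8 was higher in the cells that no marker list claimed than in any gated type of at least 50 cells at day 14. The 881 ungated cells held 136 of its UMIs, a level of 23.02 CPM, against 11.1 CPM in the proximal tubule, the highest gated type. Within the proximal tubule the 532 S3 cells were higher still, at 43.2 CPM. The ungated cells of the other libraries had 4.77 CPM at day 5, 8.69 in the Lac.z sample and 10.2 at day 28. The ungated cells entered no comparison between libraries in the main setting.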

How the results depend on the processing

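Of 23 called ratios, all 23 were still called with a mitochondrial limit of 25%, with mitochondrial and haemoglobin genes left out of the denominator, with size factors and with no UMI minimum. Clusters kept 22, means over cells 19 and no doublet removal 17. Among those that could be computed, 20 of 21 were kept by a stricter gate, 14 of 17 by thinning to 2000 UMIs, 17 of 17 by a minimum of 200 UMIs, 4 of 4 without Havcr1 cells and 11 of 12 in cells without markers of other types, the last chosen after seeing the data and including macrophage Slc30a1 at day 28, whose plain ratio was 1.38. Ratios within 1.5-fold in the main setting also became called: 7 under thinning, 6 with clusters and at most 4 under any other alternative. Without doublet removal, Mt1 in T cells at day 28 against day 14 turned to 1.006, and that comparison gave 2 higher and 3 lower pairs in place of 1 and 6. With no UMI minimum the higher and lower pairs were 6 and 6 for Lac.z (3 and 2 as reported), 11 and 5 for day 14 (6 and 1), 6 and 5 for day 28 (2 and 2) and 4 and 10 for day 28 against day 14. With a minimum of 200 UMIs, 1 pair was lower for Lac.z, 1 higher for day 28 and 0 higher for day 28 against day 14. Thinning gave 5 higher for Lac.z, 1 higher and 1 lower for day 28 and 0 higher for day 28 against day 14. Means over cells gave 1 higher for day 28. Clusters gave 3 lower for day 14, 5 lower for day 28 and 2 higher for day 28 against day 14. Clusters and gates named 99.4% alike of the 30955 cells that both named. This share leaves out ungated cells that a cluster took in, and the clusters were named from the same markers. Among clusters named proximal tubule, the share of cells gated alike ran from 54.0% (485 cells) to 99.2% (2866 cells). Beyond the construction of each alternative, the cause of the changed counts was not tested. No paired analysis was possible because each group is 1 library. Depth is a limit for the transporters: 6 Slc39a8 UMIs stood behind the macrophage value at day 28.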

Other observations

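Macrophages with a UMI of Arg1 or Gpnmb, genes of repair-type and lipid-handling macrophages, had more Mt1 than the others in both day 5 libraries. The level was 1513 against 1249 CPM without Lac.z and 1160 against 843 CPM in the Lac.z sample. Cells with and without a Mki67 UMI at day 5 had nearly the same Mt1, 1368 and 1366 CPM.

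Mt2 made up 11.6% of the metallothionein UMIs in the distal convoluted tubule at day 14 and 14.3% at day 28, and 9.22% in the Lac.z sample.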
